A study of Mus musculus with 8 samples.

Results

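The 10 genes described here are the mouse genes for the MHC class II pathway with Ciita, the gene for its transactivator. They are H2-Aa, H2-Ab1, H2-Eb1, Cd74, Ciita, H2-DMa, H2-DMb1, H2-DMb2, H2-Oa and H2-Ob, taken by name from 22050 genes with an mRNA model. All 10 were found. Messenger RNA had been profiled in haematopoietic stem cells (HSCs), the rare marrow cells that give rise to all blood lineages. They came from bone marrow of mice of the inbred strain C57BL/6 and were sorted as CD150+ CD48- EPCR+ Lineage- cells, with 100 cells for each library. The study holds 4 libraries of newborn marrow, at postnatal day 5 (P5), and 4 of marrow from mice 4 weeks of age. No genotype or treatment is named for either group, and HSCs cultured for 1 day, which the series text mentions, were not analysed here. No label says whether each library had its own animals, so the p-values speak of the spread over these libraries, part or all of which could be technical. The comparison asks how HSCs of the newborn differ from those of the young mouse, and here which class II genes differ.

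Class II molecules are pairs of an alpha and a beta chain that show peptides from endosomes to CD4 T cells. The invariant chain Cd74 guides new pairs to endosomes and blocks their groove, H2-M (from H2-DMa and H2-DMb genes) exchanges the last piece of it for peptide, and H2-O (from H2-Oa and H2-Ob) inhibits H2-M. Ciita does not bind DNA itself. It is recruited by RFX, CREB and NF-Y proteins bound to the X and Y boxes of class II promoters, and interferon-gamma induces it. In marrow, class II is best known from B cells, dendritic cells and macrophages. In C57BL/6 mice the H2-Ea gene is defective, so H2-Eb1 is transcribed but makes no complete I-E molecule.

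The promoter sequences of the genes are shown because Ciita is recruited through the X and Y boxes of class II promoters. The results below differ between genes that carry the letters marked here. RefSeq windows on GRCm38.p6, of 250 bases before to 50 bases after the start, were at hand for 7 of the 10 genes, with none for H2-Ab1, Cd74 and Ciita. Each line gives the 110 bases from 140 to 31 bases before the start, on the gene's strand. Capitals mark AAC, part of an X box, and ATTGG, the core of a Y box, with 25 to 28 bases between them.
H2-Aa, chr17:34287854-34287963, minus strand: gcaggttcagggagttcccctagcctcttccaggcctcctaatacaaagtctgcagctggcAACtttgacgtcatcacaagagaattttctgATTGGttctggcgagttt
H2-Eb1, chr17:34305727-34305836, plus strand: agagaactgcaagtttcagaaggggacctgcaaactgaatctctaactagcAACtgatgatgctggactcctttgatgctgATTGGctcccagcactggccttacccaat
H2-DMb1, chr17:34153051-34153160, plus strand: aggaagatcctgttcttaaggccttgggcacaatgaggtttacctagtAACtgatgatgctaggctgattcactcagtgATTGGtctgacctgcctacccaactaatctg
H2-DMb2, chr17:34145109-34145218, plus strand: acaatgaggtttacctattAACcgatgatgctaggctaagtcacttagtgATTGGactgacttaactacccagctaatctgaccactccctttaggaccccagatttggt
H2-Oa, chr17:34092239-34092348, plus strand: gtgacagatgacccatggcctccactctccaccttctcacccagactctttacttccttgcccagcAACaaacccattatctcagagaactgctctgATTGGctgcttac
H2-Ob, chr17:34238765-34238874, plus strand: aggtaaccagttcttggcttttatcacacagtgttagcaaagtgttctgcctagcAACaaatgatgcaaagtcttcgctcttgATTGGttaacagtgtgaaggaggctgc

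This spaced pair stood in the window of 6 of the 7 genes, and in neither of the 2 windows of H2-DMa. Over all 32851 RefSeq windows of the same 300 bases, 2.49% held it on either strand and 1.15% on the strand of the gene. The letters were set after these promoters had been looked at, so the count describes them and tests nothing. Searched alone on both strands, GCAAC was in 35.2% of windows and ATTGG in 37.4%. The pair is found in H2-Aa and H2-Eb1, which were lower at P5, and also in H2-DMb1, H2-DMb2, H2-Oa and H2-Ob, which did not pass the test. The longer GCAAC was in the windows of H2-Aa, H2-Eb1, H2-Oa and H2-Ob and in a window of H2-DMa. It was absent from those of H2-DMb1 and H2-DMb2.

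The libraries held 5775130 to 7470777 exon reads. Limits from a count of 0 cover counting error only, since the reads carry no molecular identifiers. Y-linked genes had 1532 to 2293 reads in 6 libraries and at most 2 in P5 replicates 1 and 3. All 4 4-week libraries held them. HSC markers summed to 5305 to 5957 CPM (exon reads scaled to a common library size) at P5 and 4771 to 5380 at 4 weeks, with Slamf1 (CD150) at 33.75 ± 4.69 and 36.6 ± 4.40 CPM (SD, n = 4 per age). In P5 replicate 2 monocyte and macrophage markers summed to 528.6 CPM, against 172.5 to 220.6 in the other libraries. Bulk values cannot tell fewer cells of a type from less RNA per cell.

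Class II RNA was lower in HSCs at P5 for the peptide-binding chains H2-Aa, H2-Ab1 and H2-Eb1, for Cd74, for Ciita and for H2-DMa. These differences ranged from 2.535-fold for H2-DMa to 20.2-fold for H2-Eb1. RNA of H2-DMb1, H2-DMb2, H2-Oa and H2-Ob did not pass the test, and none of the 10 genes was higher. Of the 10 genes 6 were thus lower, where 8.55% of the 12235 genes tested were lower and 7.99% higher (quasi-likelihood test of edgeR, threshold 0.05 on the p adjusted by Benjamini and Hochberg). In the same 6 genes all P5 libraries lay below all 4-week libraries, as in 11.2% of genes tested. The median log2 fold change over the 10 genes was -1.92, and over all genes tested it was -0.0042. All 10 genes passed the filter on low values, but H2-Aa, H2-Ab1, H2-Eb1 and Ciita did so through the 4-week libraries alone, so these 4 had to differ between libraries to be tested at all, and the count and the median are given as a description. The summed exon reads of the 10 genes came to 64.3, 66.4, 42.8 and 60.5 CPM at P5 and to 235.4, 113.6, 179.9 and 162.6 CPM at 4 weeks. The lowest 4-week library thus lay above the highest P5 library, and the 4-week libraries spread more widely.

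**Figure D1:**
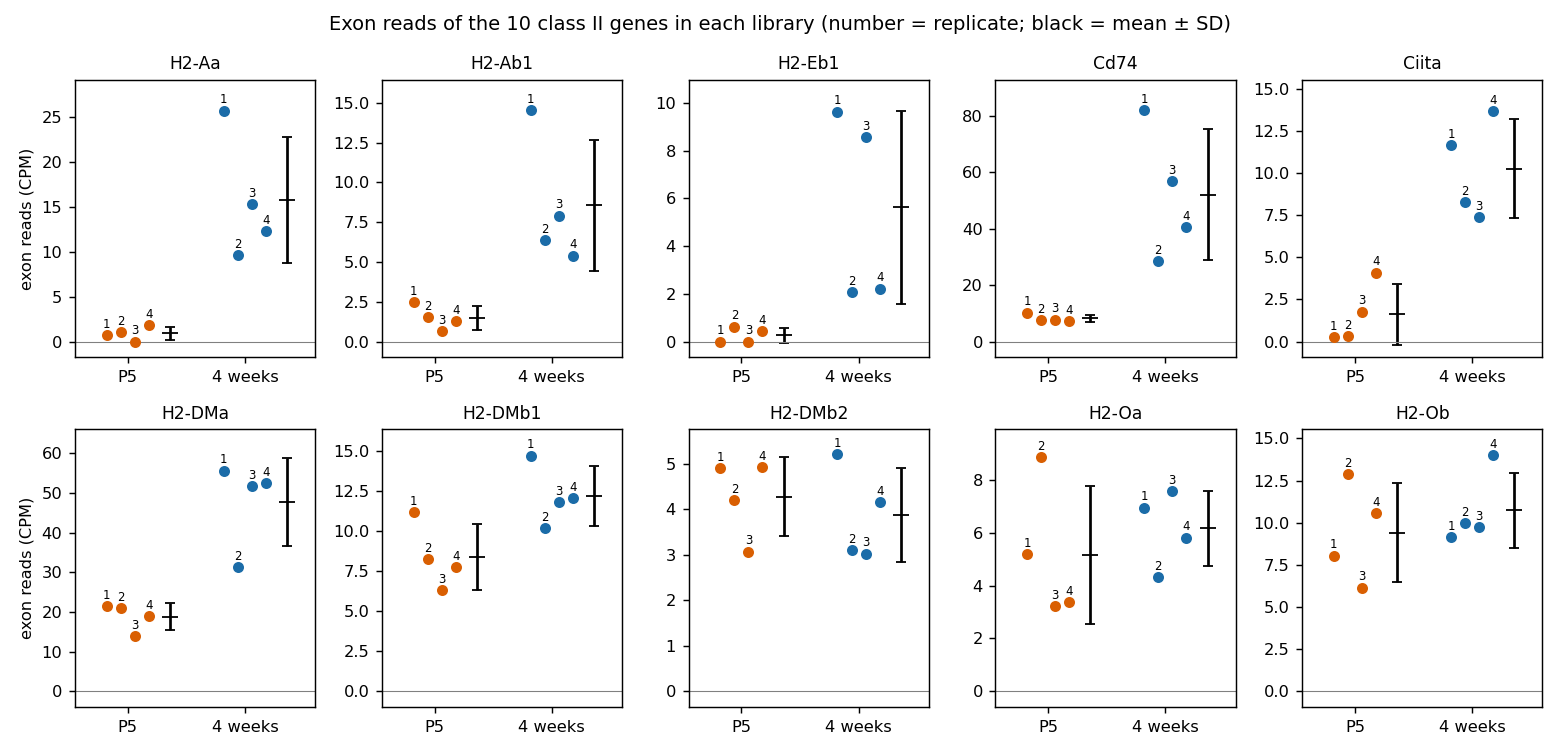
Exon reads in CPM of each of the 10 genes (vertical axes, each with its own scale) in the 4 P5 and 4 4-week libraries, with points numbered by replicate and black bars for mean ± SD. The 2 ages do not overlap for H2-Aa, H2-Ab1, H2-Eb1, Cd74, Ciita and H2-DMa, and overlap for the other 4 genes.

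H2-Aa, the alpha chain of the I-A molecule (GRCm38.p6 chr17:34282744-34287823), had 5, 7, 0 and 13 exon reads in the P5 libraries and 163, 56, 91 and 89 in the 4-week libraries. Its level was 0.901 ± 0.767 CPM at P5 and 15.8 ± 7.05 CPM at 4 weeks (SD, n = 4 per age). Every 4-week library was far above every P5 library, and 4-week replicate 1 was the highest. H2-Aa was 16.85-fold lower at P5 (log2 fold change -4.07, SE 0.522, edgeR adjusted p = 0.000142). Without P5 replicate 4 the log2 fold change was -4.67, and without P5 replicate 3, which had no read, it was -3.70.

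H2-Ab1, the beta chain of I-A (chr17:34263227-34269418), had 18, 10, 4 and 9 reads at P5 and 92, 37, 47 and 39 at 4 weeks. That is 1.48 ± 0.751 CPM against 8.56 ± 4.12 CPM (SD, n = 4 per age). Again 4-week replicate 1 was highest, and the ages did not overlap. H2-Ab1 was 5.65-fold lower at P5 (log2 fold change -2.50, SE 0.440, edgeR adjusted p = 0.00164).

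H2-Eb1, the beta chain of I-E (chr17:34305867-34316674), had 0, 4, 0 and 3 reads at P5 and 61, 12, 51 and 16 at 4 weeks. In P5 replicates 1 and 3 a count of 0 allows up to 0.402 and 0.488 CPM, taking 3 counts as the limit. The 4-week libraries fell into a high pair, replicates 1 and 3, and a low pair, replicates 2 and 4, all above the P5 libraries. Its level was 0.261 ± 0.312 CPM at P5 and 5.63 ± 4.05 CPM at 4 weeks (SD, n = 4 per age; log2 fold change -4.34, SE 0.820, edgeR adjusted p = 0.00265). This 20.2-fold difference rests on 7 reads at P5, and without P5 replicate 2 the log2 fold change was -5.10.
H2-Eb2, a related beta chain gene that is not among the 10, went the other way in reads, with 13, 4, 4 and 7 at P5 and 1, 1, 0 and 1 at 4 weeks. It was too low to be tested. Its window held the same spaced pair.

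Cd74, the invariant chain (chr18:60803849-60812652), had the highest mean exon reads of the family at 4 weeks, through replicates 1 and 3, while H2-DMa had more reads than Cd74 in replicates 2 and 4. It had 75, 49, 48 and 52 reads at P5 and 520, 165, 338 and 293 at 4 weeks, or 8.23 ± 1.34 CPM against 52.0 ± 23.2 CPM (SD, n = 4 per age). The P5 libraries lay close together while the 4-week libraries spread from 28.4 to 82.2 CPM. Cd74 was 6.29-fold lower at P5 (log2 fold change -2.65, SE 0.283, edgeR adjusted p = 2.97e-05). It made up 11.5% to 18.1% of the family's exon reads in the P5 libraries and 24.96% to 34.9% in the 4-week libraries.

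Ciita, the transactivator (chr16:10480014-10531064), had 2, 2, 11 and 29 exon reads at P5 and 74, 48, 44 and 99 at 4 weeks. The P5 libraries differed among themselves, from 0.273 CPM in replicate 1 to 4.09 CPM in replicate 4, and all were below the lowest 4-week library at 7.40 CPM. The means were 1.61 ± 1.79 CPM and 10.3 ± 2.95 CPM (SD, n = 4 per age). Ciita was 6.295-fold lower at P5 (log2 fold change -2.65, SE 0.576, edgeR adjusted p = 0.00633). P5 replicate 4 held most of the P5 reads, and without it the log2 fold change was -3.72. The P5 libraries with Y-linked reads were replicates 2 and 4. With the presence of such reads as a covariate the log2 fold change of Ciita was -2.19 and the call was lost (edgeR adjusted p = 0.0694), as it was over the 6 libraries with Y-linked reads (log2 fold change -2.19, edgeR adjusted p = 0.0523). Cd74, H2-Aa, H2-Ab1, H2-Eb1 and H2-DMa passed the test in both of these fits. In each of them the log2 fold change of H2-Aa was -3.40 and that of H2-Eb1 -3.39, both nearer to 0 than over all libraries. The RefSeq spans of Dexi and Ciita overlap, but the deposited Ciita model is shorter (48593 against 51051 bases). Whether the deposited models of the 2 genes overlap was not checked. The libraries do not mark strand, so reads may be mixed where they do. Dexi had 15.8 ± 2.99 CPM at P5 and 23.97 ± 4.82 CPM at 4 weeks (SD, n = 4 per age; log2 fold change -0.60, edgeR adjusted p = 0.0426).

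H2-DMa, the alpha chain of H2-M (chr17:34119693-34139101), had 157, 135, 86 and 134 reads at P5 and 352, 181, 307 and 378 at 4 weeks. Its levels were 18.8 ± 3.44 CPM and 47.7 ± 11.1 CPM (SD, n = 4 per age). The 4-week libraries were all above the P5 libraries, with replicate 2 the lowest of them. H2-DMa was 2.535-fold lower at P5 (log2 fold change -1.34, SE 0.190, edgeR adjusted p = 0.000328). Its RefSeq span overlaps Brd2, a chromatin reader, but the deposited H2-DMa model is shorter (16385 against 19409 bases). On the first contig listed, the deposited models of H2-DMa and Brd2 do not overlap. Brd2 had 220.8 ± 16.75 CPM at P5 and 234.8 ± 16.45 CPM at 4 weeks (SD, n = 4 per age) and did not pass the test (log2 fold change -0.09, edgeR adjusted p = 0.507).

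Beta chains of H2-M come from the neighbouring genes H2-DMb1 (chr17:34153191-34160229) and H2-DMb2 (chr17:34143229-34151553). H2-DMb1 had 82, 53, 39 and 55 reads at P5 and 93, 59, 70 and 87 at 4 weeks, or 8.37 ± 2.05 CPM against 12.2 ± 1.88 CPM (SD, n = 4 per age). Its ages overlapped only through P5 replicate 1 and 4-week replicate 2. H2-DMb1 did not pass after adjustment (log2 fold change -0.54, SE 0.224, edgeR unadjusted p = 0.0319, adjusted p = 0.125). H2-DMb2 had 36, 27, 19 and 35 reads at P5 and 33, 18, 18 and 30 at 4 weeks, with log2 fold change 0.14 (SE 0.332, edgeR adjusted p = 0.821). The transcripts of the 2 genes were 94.2% identical over 1246 aligned bases, with a longest identical run of 221 bases, so the split of reads between them is uncertain.

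Neither chain of H2-O passed the test. H2-Oa (chr17:34092379-34095234) had 38, 57, 20 and 24 reads at P5 and 44, 25, 45 and 42 at 4 weeks (log2 fold change -0.26, SE 0.356, edgeR adjusted p = 0.682). H2-Ob (chr17:34238905-34245908) had 59, 83, 38 and 75 reads at P5 and 58, 58, 58 and 101 at 4 weeks (log2 fold change -0.19, SE 0.254, edgeR adjusted p = 0.666). For both genes the ages overlapped widely, and P5 replicate 2 was the highest P5 library. With a term for Y-linked reads in the fit the sign of H2-Ob turned, at a log2 fold change of 0.12 (edgeR adjusted p = 0.841).

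Of the 10 genes 8 were listed in 4 numbered copies each, on separate contigs, and none of their copies had a uniquely mapped exon read. Their values are sums over copies, and the sources used here do not say how such reads were placed. Copies 3 and 4 held 4.72% of the reads of H2-Aa, 8.20% of H2-Ab1 and 51.85% of H2-DMb2. At P5 and 4 weeks this share was 4.00% and 4.76% for H2-Aa, 38.9% and 37.2% for H2-DMa, and 14.3% and 24.3% for H2-Eb1, which had 7 reads at P5. Cd74 and Ciita were listed once, and all of their exon reads, 1540 and 309, were uniquely mapped. A count of uniquely mapped reads thus holds the same reads for both genes.

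Levels of different genes were compared as CPM per kb of exon. At P5 the order was H2-DMa (10.55 ± 1.93), H2-DMb1 (6.55 ± 1.601), Cd74 (5.82 ± 0.947), H2-DMb2 (5.44 ± 1.11), H2-Oa (4.92 ± 2.495), H2-Ob (3.40 ± 1.065), H2-Ab1 (1.24 ± 0.631), H2-Aa (0.842 ± 0.717), Ciita (0.188 ± 0.209) and H2-Eb1 (0.157 ± 0.187, SD, n = 4 per age). Only between H2-Ob and H2-Ab1 did the libraries of neighbours in this order not overlap. The H2-M and H2-O chains thus stood above the I-A and I-E chains they serve. At 4 weeks Cd74 led (36.8 ± 16.4 CPM per kb), then H2-DMa (26.8 ± 6.26), H2-Aa (14.7 ± 6.59), H2-DMb1 (9.525 ± 1.47) and H2-Ab1 (7.19 ± 3.46, SD, n = 4 per age). H2-Oa, H2-DMb2, H2-Ob, H2-Eb1 and Ciita followed, from 5.875 down to 1.20 CPM per kb. All neighbours in the 4-week order overlapped. H2-Aa was number 8 of the 10 at P5 and number 3 at 4 weeks.

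The change of one gene beside another of the family was described as the ratio of exon reads of 2 genes in the same library, with 0.5 reads added to each. The 4 pairs were picked with the results of the single genes known, so the ratios restate those differences within a library and are given with no test. The log2 ratio of H2-DMa to H2-DMb1, the chains of H2-M, was 0.933, 1.34, 1.13 and 1.28 at P5 and 1.915, 1.61, 2.125 and 2.11 at 4 weeks. The P5 mean was lower by 0.77 (1.17 ± 0.181 against 1.94 ± 0.241, SD, n = 4 per age). H2-Aa to H2-Oa, the alpha chains of I-A and H2-O, gave -2.99 ± 1.84 at P5 and 1.28 ± 0.404 at 4 weeks (SD, n = 4 per age, difference -4.27). That difference was -3.48 without P5 replicate 3 and -4.98 without P5 replicate 4. H2-Ab1 to H2-Ob, the beta chains, gave -2.69 ± 0.672 and -0.411 ± 0.840 (SD, n = 4 per age, difference -2.28). Cd74 to H2-DMa gave -1.18 ± 0.282 and 0.0502 ± 0.399 (SD, n = 4 per age, difference -1.23). In all 4 ratios every P5 library lay below every 4-week library.

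**Figure D2:**
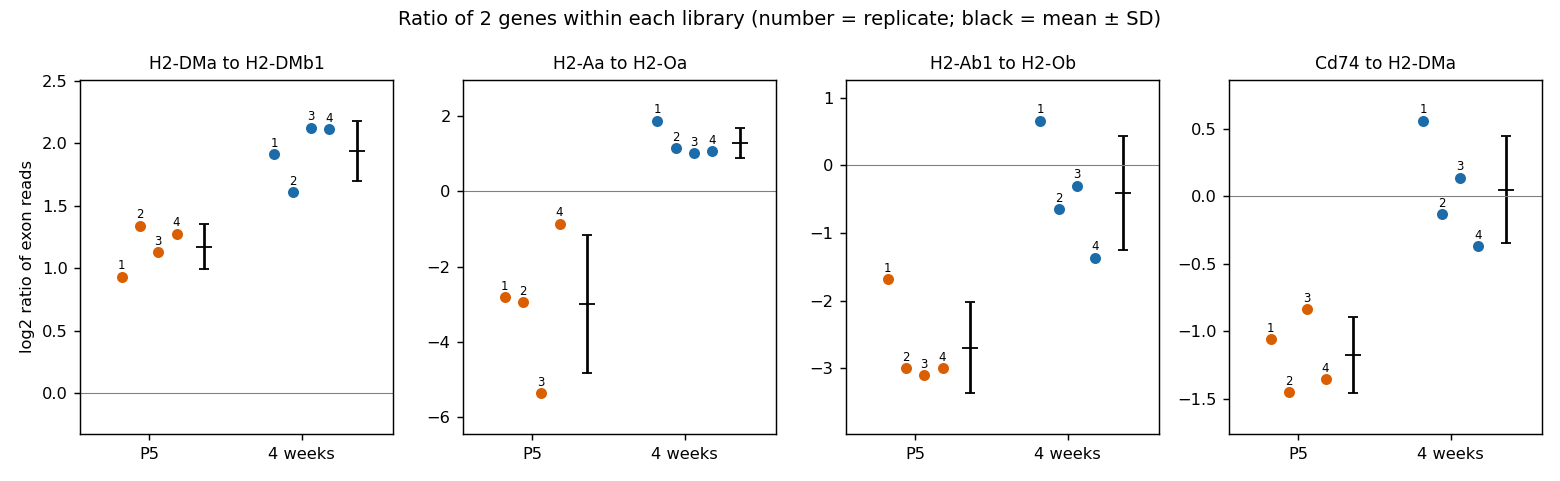
Log2 ratio of exon reads (vertical axes) of H2-DMa to H2-DMb1, H2-Aa to H2-Oa, H2-Ab1 to H2-Ob and Cd74 to H2-DMa in each library, numbered by replicate, with black bars for mean ± SD. In each ratio the 4 P5 libraries lie below the 4 4-week libraries.

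Intron reads, which can come from unspliced RNA, gave another readout of the same libraries. Over all genes introns took 60.1% to 68.7% of the exon and intron reads of a library, and the source of these reads was not tested. For Ciita they were lower at P5, as the exon reads were. There were 13, 28, 29 and 60 intron reads at P5 and 230, 85, 78 and 235 at 4 weeks. That is 2.42 ± 1.22 CPM against 11.2 ± 5.255 CPM (SD, n = 4 per age; log2 fold change -2.19, SE 0.414, edgeR adjusted p = 0.00391). Of the 8 genes with enough intron reads to test, 2 were lower, Ciita and H2-Ab1, and none was higher, where 8.86% of 13180 genes tested were lower and 9.01% higher. H2-Ab1 rests on 15 reads at P5 and 71 at 4 weeks (log2 fold change -2.12, edgeR adjusted p = 0.0441). These were 4, 9, 2 and 0 at P5 and 17, 17, 18 and 19 at 4 weeks. H2-Ab1 thus passed the intron filter through the 4-week libraries alone, and the count is given as a description. Its call was lost when any library other than P5 replicate 2 was left out (largest edgeR adjusted p = 0.120), and without P5 replicate 2 its log2 fold change was -2.96.

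Cd74 intron reads numbered 47, 78, 98 and 111 at P5 and 152, 68, 166 and 91 at 4 weeks, and the ages overlapped. The log2 fold change was -0.49 (SE 0.322, edgeR adjusted p = 0.313), beside -2.65 in exon reads. H2-DMa intron reads numbered 251, 446, 223 and 304 at P5 and 412, 340, 378 and 500 at 4 weeks (log2 fold change -0.33, SE 0.197, edgeR adjusted p = 0.269). Without P5 replicate 2, H2-DMa intron reads passed the test (log2 fold change -0.56, edgeR adjusted p = 0.0392). Introns took 59.9% of the exon and intron reads of Cd74 at P5 and 26.6% at 4 weeks, and 74.7% and 70.3% for Ciita. H2-Aa had 20, 0, 1 and 8 intron reads at P5 and 14, 18, 17 and 20 at 4 weeks (log2 fold change -1.08, edgeR adjusted p = 0.383). Most of its P5 intron reads were in replicate 1, and without that library the log2 fold change was -2.51 (edgeR adjusted p = 0.0519). Whether the exon and intron changes of a gene differ was not tested.

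**Figure D3:**
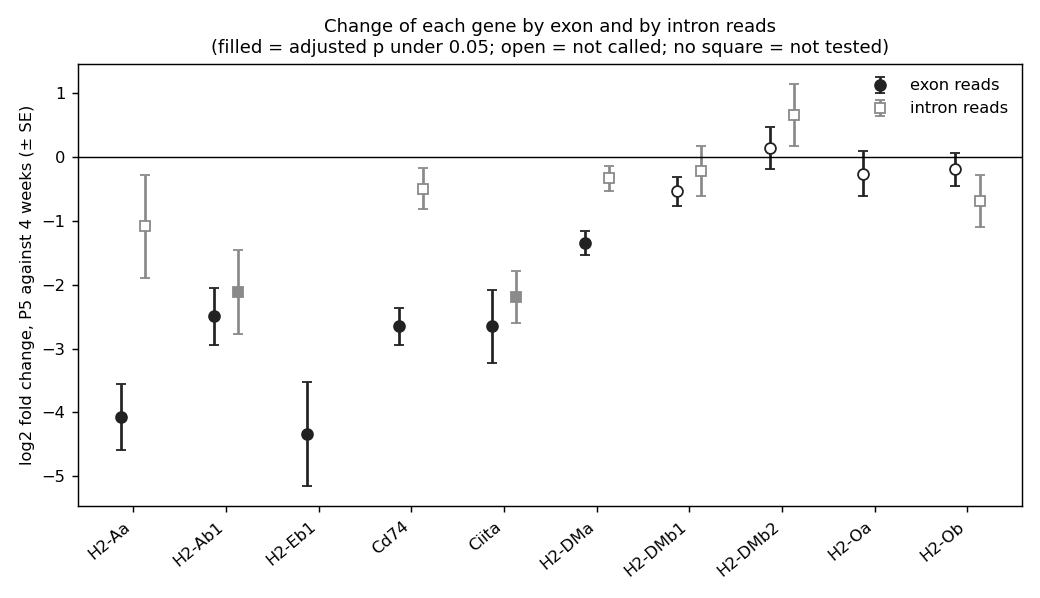
Log2 fold change of each gene, P5 against 4 weeks (vertical axis, bars are SE), by exon reads (black circles) and intron reads (grey squares), filled where the adjusted p was under 0.05. Ciita and H2-Ab1 lie near -2 or lower by both readouts, while Cd74 lies at -2.65 by exon reads and -0.49 by intron reads.

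Reads across exon junctions, a part of the exon reads, come from spliced RNA. For Cd74 they numbered 40, 25, 18 and 23 at P5 and 302, 93, 188 and 167 at 4 weeks. Ciita had 1, 0, 0 and 0 junction reads at P5 and 10, 5, 5 and 12 at 4 weeks. In H2-Aa, H2-Ab1, Cd74, Ciita and H2-DMa, 5 of the 10 genes, all P5 libraries lay below all 4-week libraries, as in 6.68% of genes. In none did they lie above, as they did in 5.76% of genes. H2-Aa, H2-Ab1 and Ciita had passed the filter on exon reads through the 4-week libraries alone, so this count is given as a description. H2-Eb1 overlapped, with 4 junction reads in all at P5 and 26 at 4 weeks.

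Ciita is carried to promoters by other proteins. Of 12 genes for this DNA-binding complex and its coactivators, 1 was lower at P5 and none higher, beside 8.55% and 7.99% of all genes tested, so the share lower is that of the background. The median log2 fold change was 0.01. The lower gene was Rfx5, the RFX subunit that binds the X box, with 89.3 ± 6.49 CPM at P5 and 120.0 ± 4.15 CPM at 4 weeks (SD, n = 4 per age; log2 fold change -0.43, edgeR adjusted p = 0.00276). Its partner Rfxank had 42.9 ± 9.71 CPM and 35.8 ± 7.88 CPM (SD, n = 4 per age; log2 fold change 0.26, edgeR adjusted p = 0.381).

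Of 16 genes known to act on Ciita transcription, 3 were lower and 3 higher at P5, beside 8.55% and 7.99% of all genes tested, and the median log2 fold change was 0.01. Spi1, the myeloid and B cell factor PU.1, was higher at P5, with 94.3 ± 2.86 CPM against 52.5 ± 4.44 CPM (SD, n = 4 per age; log2 fold change 0.84, edgeR adjusted p = 3.26e-05). Irf8, an interferon regulatory factor of myeloid cells, was higher too, with 27.3 ± 7.87 CPM against 11.9 ± 2.71 CPM (SD, n = 4 per age; log2 fold change 1.20, edgeR adjusted p = 0.00230). Among the lower genes, Irf1 had 88.25 ± 12.67 CPM at P5 and 117.4 ± 10.34 CPM at 4 weeks (SD, n = 4 per age, log2 fold change -0.41, edgeR adjusted p = 0.0199). Myc was lower too (log2 fold change -0.64, edgeR adjusted p = 0.00804), and Irf2 was higher (log2 fold change 0.26, edgeR adjusted p = 0.0175). Myc, Irf1 and Irf2 were named after their values were seen.

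Endosomal proteases and their helpers, which cut antigen and Cd74, held 1 higher gene and none lower among 11. For this list and the 2 that follow, 1 called gene is near the 8.55% lower and 7.99% higher over all genes, or too few to read. It was the protease Lgmn, where P5 replicate 2 had 116.6 CPM and the other P5 libraries 5.04 to 13.9 CPM. Ctss, the protease that trims Cd74, had 7.09, 40.6, 15.8 and 9.45 CPM at P5, with the highest value again in replicate 2, and 20.9, 12.75, 22.4 and 21.2 CPM at 4 weeks (log2 fold change -0.09, edgeR adjusted p = 0.915). Among 7 tested genes of turnover and costimulation 1 was lower, Cd274 (PD-L1), with 91.5 ± 14.75 CPM against 126.7 ± 4.58 CPM (SD, n = 4 per age; log2 fold change -0.47, edgeR adjusted p = 0.00938). Cd40, a receptor of antigen-presenting cells, had 0 reads in all 8 libraries. Among 4 tested partners of Cd74 at the surface 1 was higher at P5, the adhesion receptor Cd44, with 458.9 ± 8.80 CPM against 279.5 ± 20.65 CPM (SD, n = 4 per age; log2 fold change 0.72, edgeR adjusted p = 1.84e-05). Mif, the ligand of Cd74, had 98.6 ± 17.98 CPM and 92.0 ± 15.9 CPM (SD, n = 4 per age; log2 fold change 0.10, edgeR adjusted p = 0.679).

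Neighbours of the class II genes on chromosome 17, some of them outside the stretch that holds these genes, were described in the same way. Of 11 tested, 4 were lower at P5 and 1 higher, beside 8.55% and 7.99% of all genes tested, with a median log2 fold change of -0.18. The lower genes were Tap1, Tap2, Psmb8 and Psmb9, which supply peptides to class I molecules and sit between H2-DMb and H2-Ob genes. Tap2 had 67.1 ± 4.603 CPM at P5 and 121.7 ± 14.99 CPM at 4 weeks (SD, n = 4 per age; log2 fold change -0.86, edgeR adjusted p = 7.74e-05). The higher gene was the collagen Col11a2 (log2 fold change 1.13, edgeR adjusted p = 0.00405). Around Ciita 1 of 5 tested genes was lower, Dexi, which is too few to set against that share.

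Markers of cells that carry class II were summed in each library. The 13 B cell markers summed to 117.8 to 138.2 CPM at P5 and 45.85 to 54.97 CPM at 4 weeks, opposite in direction to the class II genes. Most of this came from the signalling adaptor Bank1 (73.7 ± 11.35 and 18.75 ± 5.17 CPM) and the receptor chain Cd79b (39.3 ± 8.12 and 21.5 ± 1.65 CPM, SD, n = 4 per age), and both were higher at P5 (edgeR adjusted p = 8.06e-06 and 0.00158). The defining B cell genes Ms4a1 and Pax5 had 0 reads in all libraries. The 11 dendritic cell markers summed to 131.7 to 227.9 CPM at P5 and 101.2 to 140.2 CPM at 4 weeks, mostly from Flt3, Bst2 and Zbtb46, of which Flt3 is also a gene of early progenitors.
Of the dendritic cell genes, Itgax (CD11c) had 0 reads at P5 and 0, 4, 7 and 1 reads at 4 weeks, and Clec9a had 0, 3, 2 and 6 reads at P5 and 2, 0, 25 and 11 at 4 weeks. In the same list Cd209a had 19, 26, 7 and 15 reads at P5 and 2, 0, 1 and 2 at 4 weeks, and Siglech had 17 reads in all at P5 and 3 at 4 weeks. All 4 genes were too low to be tested. Monocyte and macrophage markers, 12 of which were found, summed to 183.4 to 528.6 CPM at P5 and 172.5 to 198.2 CPM at 4 weeks. The highest of them was Lyz2, at 171.6 ± 15.25 CPM at P5 and 158.1 ± 7.46 CPM at 4 weeks (SD, n = 4 per age). In P5 replicate 2 Csf1r stood at 158.1 CPM and Cx3cr1 at 64.35 CPM, and its class II sum was 66.4 CPM. Without P5 replicate 2, 6 of the 10 genes were lower, beside 1069 of all 12354 genes tested. Without 4-week replicate 3, which had the most Clec9a reads, 6 were lower, beside 860 of 12416. The count was 6 with each of the other libraries left out too, so it does not bear on these markers. None of these 3 marker sums was higher at 4 weeks in all libraries, and their part in the class II result was not tested.

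**Figure D4:**
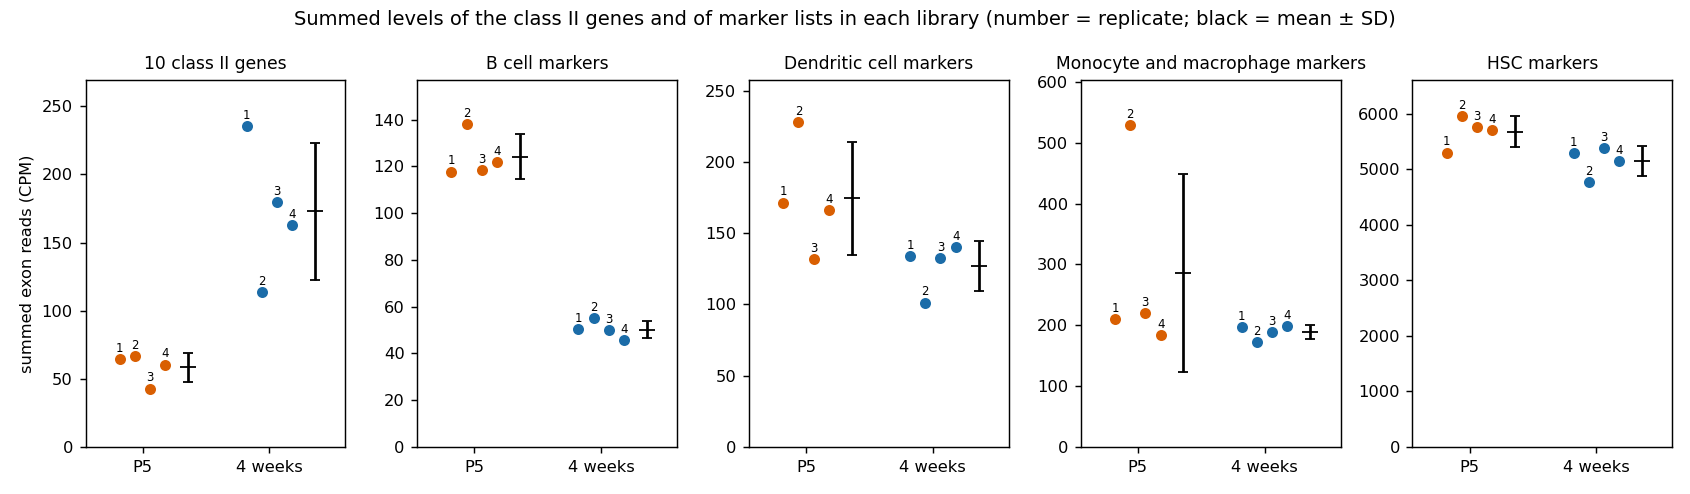
Summed exon reads in CPM (vertical axes) of the 10 class II genes and of B cell, dendritic cell, monocyte and macrophage, and HSC markers in each library, numbered by replicate, with black bars for mean ± SD. The class II sum is higher at 4 weeks in every library, while the B cell sum is lower there and the macrophage sum stands out in P5 replicate 2.

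Among 10223 further genes with a mean log2 CPM of at least 3, the 5 whose log2 CPM over the 8 libraries was most like that of the class II sum were Gm4070 (Pearson r 0.979), Crispld1 (0.978), Zfp809 (0.974), Gbp2 (0.972) and Nav2 (0.971). As the class II sum differs between the ages, 255 genes had r over 0.9. With the mean of each age taken out, r was 0.869, 0.872, 0.842, 0.874 and 0.792 for the 5 named genes. They were picked by r over the same libraries, so these values follow in part from that choice. They were not set against those of all genes. Gbp2, an interferon-induced guanylate-binding protein, had 43.35, 52.1, 32.5 and 37.2 CPM at P5 and 102.7, 64.3, 73.7 and 73.97 CPM at 4 weeks. Like the class II sum it was highest in 4-week replicate 1 and, at 4 weeks, lowest in replicate 2. That likeness, too, follows in part from how the gene was picked.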

How the data were processed

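The authors deposited raw counts of reads per gene for each of 8 libraries, over exons, introns and exon junctions. Reads had been trimmed, per the file headers, and libraries were made with a Nextera XT kit, per the labels' protocols, which does not mark strand. Per the submitters' processing notes they were placed on mm10, while aligner and counting program are not given in the sources. The deposited exon lengths of the gene models were used for levels per kb. Total exon reads were used, and copies of a gene listed under numbered names were summed, which left 22050 genes with an mRNA model. Positions and promoters are from RefSeq on GRCm38.p6, and transcripts were aligned from GENCODE.

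Tests used edgeR 4.0.16 under R 4.3.3 (TMM scaling, filterByExpr, quasi-likelihood fit on age alone), with Benjamini-Hochberg adjustment over the 12235 genes kept by exon reads and, apart, the 13180 kept by intron reads. CPM are scaled by TMM, standard errors are approximate, and called means an adjusted p under 0.05. Ratios of 2 genes were computed in Python 3.11.15 with numpy 2.4.6. Alternatives were limma 3.58.1 (voom), DESeq2 1.42.0, other filters, scalings and reads, each library left out, the replicate number as a block, and Y-linked reads as a covariate. Ratio alternatives were added after seeing the data. The 10 genes and all lists were chosen with earlier results of these data known. Named are the 10 genes, up to 3 called genes of each list with the smallest p, uncalled genes needed for a count, the most abundant markers, and the 5 genes most like the class II sum. Exceptions chosen after their values were seen are H2-Eb2, Dexi, Brd2, Clec9a, Itgax, Cd209a, Siglech, Rfxank, Ctss, Mif, Psmb8, Myc, Irf1 and Irf2. Some genes of these lists are not reported here by name.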

Additional observations from a re-analysis of the deposited data

Results flagged for a closer look

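Of 48 groups of 4 libraries screened (a gene's exon or intron reads, or a ratio, at 1 age), 4 had 1 library that stood apart from the other 3 of its age by Dixon's gap test, where the gap to the nearest library over the whole range passes its 95% critical value for 4 samples, and chance gives this in about 1 in 20 groups. Cd74 exon reads were highest at P5 in replicate 1, at 10.2 CPM (gap over range 0.853). H2-DMa exon reads were lowest at 4 weeks in replicate 2, at 31.2 CPM (0.838). The log2 ratio of H2-Aa to H2-Oa was highest at 4 weeks in replicate 1, at 1.877 (0.839). The log2 ratio of H2-Ab1 to H2-Ob was highest at P5 in replicate 1, at -1.685 (0.924). P5 replicate 1 also had the lowest intron share of all libraries, 60.1% against 66.8% to 68.7% in the others, and its part in these values was not tested.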

How the results depend on the processing

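By exon reads, 6 of the 10 class II genes were lower at P5 with the replicate block, with each library left out (6 to 6), with no filter, with DESeq2 size factors, and by DESeq2, limma-voom and exon plus intron reads. In the last, log2 fold changes were nearer to 0, at -1.69 for Cd74, -3.11 for H2-Aa, -3.55 for H2-Eb1 and -0.70 for H2-DMa. The count was 5 with Y-linked reads as a covariate and over the libraries with such reads, where Ciita was not called. It was 5 of the 8 genes tested at 5 CPM in at least 4 libraries and with copies not summed. By uniquely mapped reads it was 2 of the 2 genes that could be tested. These were Cd74 and Ciita, whose exon reads were all uniquely mapped, so the same reads were counted again. Over all genes, 723 of 12235 were lower with the replicate block and 1041 of 17085 with no filter. With DESeq2 size factors 1023 of 12235 were lower, by DESeq2 1163, and by limma-voom 1077. By exon plus intron reads 1279 of 14287 were lower. At 5 CPM in at least 4 libraries 964 of 10930 were lower, and with copies not summed 1031 of 12206. By uniquely mapped reads 959 of 11629 were lower. Higher genes numbered 577 with the replicate block, 628 with the Y-linked covariate and 619 over libraries with Y-linked reads. With that covariate 608 of 12235 were lower, and over those libraries 638 of 12594. Leaving out each library gave 702 to 985 higher and 795 to 1069 lower, of 12354 to 12417 tested. By intron reads the count of lower class II genes was 1 with the replicate block, without the filter, by DESeq2 and with the Y-linked covariate, and 1 to 3 with each library left out. Over all genes, 822 of 13180 were lower with the block and 1175 of 18231 without the filter. By DESeq2 1482 of 13180 were lower, and with the covariate 607. With each library left out 821 to 1040 were lower, of 13383 to 13446 tested. A count of 1 class II gene is too few to set against these shares. H2-Ob exon reads turned to 0.12 with the covariate and over libraries with Y-linked reads. H2-DMb1 intron reads ranged from -0.39 to 0.01 with each library left out, above 0 only without 4-week replicate 1. The cause was not tested. Replicate numbers did not pair the samples, since same-numbered libraries correlated in their deviations at -0.031, -0.236, -0.096 and -0.052. Depth limits the genes with few P5 reads, H2-Eb1 (7), H2-Aa (25), H2-Ab1 (41) and Ciita (44), where 3 counts stand for 0.402 to 0.520 CPM.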
